A study of Arundo donax with 12 samples.

Results

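Protein biosynthesis genes of giant reed (Arundo donax), a perennial biomass grass, were followed in leaf and root under cadmium. The members were taken from the study's list of protein biosynthesis unigenes, each identifier once, where the printed best-hit species was a grass (Poaceae). This gave 56 of the 124 unigenes of the list, out of 126668 unigenes in the count table. A unigene is the longest transcript of a cluster in a transcriptome assembled without a reference genome. The best hits fell in Panicum (20), Zea (8), Hordeum (7), Setaria (7), Sorghum (7), Dichanthelium (3), Oryza (3) and Brachypodium (1). By the functional bins printed in the list, 17 members were proteins of the large ribosomal subunit, 10 of the small subunit, 13 were ribosome biogenesis factors, 6 were translation factors or enzymes that modify them, 4 acted in mRNA quality control or tRNA charging and 6 belonged to the organelle machinery. In 6 components more than 1 member carried the same name (14 members in all). Whether such members are alike in sequence was not checked. Counts of unigenes alike in sequence can be split between them by the read assignment, so their separate values may be uncertain.

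The plants were the G10 ecotype, 1 stem node per pot, in soil given either 4 mg/kg of cadmium nitrate (Cd) or, as control, ammonium nitrate to balance the nitrogen (CK). Cd and CK therefore differed in ammonium as well as in cadmium, and these cannot be told apart. Roots (R) and leaves (L) were sampled after about 3 months, with 3 biological replicates in each of Cd_R, CK_R, Cd_L and CK_L. The 12 libraries came from 6 pots, so root and leaf libraries shared plants, but the labels do not state which ones. The study drew its list from the DEGs of Cd_R vs Cd_L after subtracting those of CK_R vs CK_L in these same libraries. The organ differences of the members are therefore a description: calls of the fit over all unigenes are counted there beside the share of all unigenes called, and nothing rests on them. Their treatment differences use the same libraries and are not independent of the choice either.

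Cytosolic ribosomes consist of a large subunit, which forms the peptide bonds, and a small subunit, which reads the mRNA. Both are put together in the nucleolus from ribosomal RNA and ribosomal proteins with the help of assembly factors, many of them first described in yeast, that process the RNA and then leave. Growing plant tissue makes many ribosomes, and chloroplasts and mitochondria hold ribosomes of their own.

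Total counts ranged from 22157170 to 26033492 per library, and levels are given as CPM (counts scaled to a common library total) on the TMM scale, which adjusts for differences in composition between libraries. CPM is not divided by transcript length, so levels are compared between libraries and not between genes. Leaf and root libraries separated over all unigenes, and no marker genes of leaf or root were checked. Cd_R replicate 1 and CK_R replicate 3 stood apart from the other 4 root libraries on the second principal component and had the most unigenes with a count (105247 and 100351, against 81443 to 87750 in the other root libraries). Calls, medians and bounds of the members that rest mainly on these libraries are also given without them. In bulk tissue, fewer cells of a type and less RNA per cell cannot be told apart. A p-value sets the difference between groups against the spread between the libraries within them. The reported organ and interaction fits treat root and leaf libraries as independent, though these shared plants.

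Together the 56 members took 0.153% to 0.19% of the counts of Cd_R libraries, 0.127% to 0.138% in CK_R, 0.0493% to 0.0585% in Cd_L and 0.0348% to 0.0669% in CK_L. A count in every one of the 12 libraries was found for 45 members. A further 10 members, all of them ribosomal proteins, had no count in any of the 6 leaf libraries. RPS21 of the organelles (Cluster-14691.9257) had 12 leaf counts, the fewest among the other 46. The members thus did not form 1 expression class, and those 10 are described on their own at the end.

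**Figure D1:**
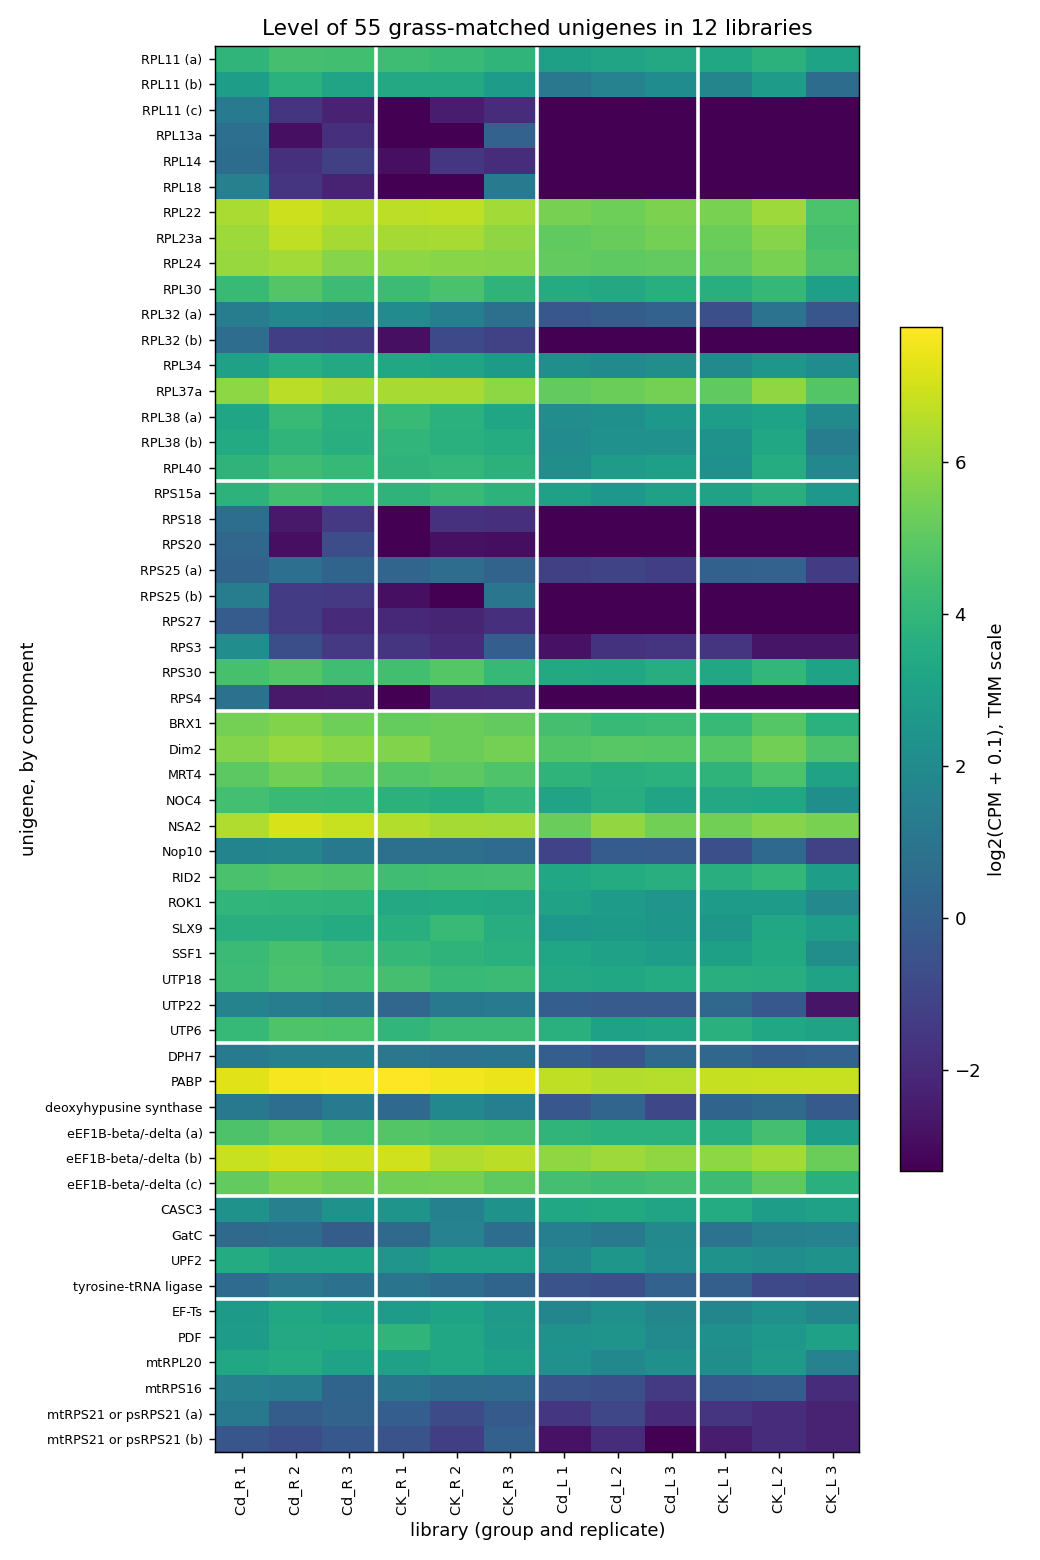
Level of 55 of the 56 unigenes (rows, grouped by class) in the 12 libraries (columns), as log2(CPM + 0.1) on the TMM scale, with letters where unigenes share a component name. Most rows are brighter in the 6 root libraries than in the 6 leaf libraries, and the 10 unigenes without leaf counts are darkest in leaf.

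Summed over its members, each class other than mRNA quality control and tRNA charging was higher in root than in leaf, and the ratio of the Cd_R to the CK_R mean ran from 1.04 for translation factors to 1.28 for ribosome biogenesis factors. The 17 large subunit proteins summed to 376, 532 and 414 CPM in Cd_R and 429, 429 and 331 CPM in CK_R. In leaf they summed to 186, 192 and 221 CPM in Cd_L and 201, 307 and 133 CPM in CK_L. Cd_R and CK_R libraries thus overlapped, and CK_L replicates 2 and 3 enclosed all Cd_L libraries.

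The 10 small subunit proteins summed to 51.5 ± 6.51 CPM in Cd_R and 44.4 ± 7.13 CPM in CK_R, and to 20.6 ± 2.2 CPM in Cd_L and 23.3 ± 8.17 CPM in CK_L (SD, n = 3 each). Their root sums overlapped, at 53.6, 56.7 and 44.2 CPM in Cd_R and 42.3, 52.4 and 38.6 CPM in CK_R. RPS3 and the small subunit members without leaf counts had 68.4% to 92.7% of their Cd_R counts in replicate 1. The 13 ribosome biogenesis factors summed to 352, 448 and 380 CPM in Cd_R and 320, 304 and 294 CPM in CK_R, so that these groups did not overlap. Their leaf sums were 174 ± 10.4 CPM in Cd_L and 180 ± 45.1 CPM in CK_L. The translation factors summed to 383 ± 41.8 CPM in Cd_R and 368 ± 43 CPM in CK_R, and to 196 ± 5.85 CPM in Cd_L and 208 ± 34.1 CPM in CK_L. The class of mRNA quality control and tRNA charging stood apart from the others, with 16.4 ± 2.2 CPM in Cd_R, 14.7 ± 0.809 CPM in CK_R, 17.6 ± 1.29 CPM in Cd_L and 16.7 ± 2.15 CPM in CK_L. UPF2 and the tyrosine-tRNA ligase in it were higher in root, and CASC3 and GatC in leaf. Organelle members summed to 31.4 ± 3.38 CPM in Cd_R and 29.1 ± 4.97 CPM in CK_R, and to 13.6 ± 1.19 CPM in Cd_L and 15.4 ± 2.45 CPM in CK_L.

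**Figure D2:**
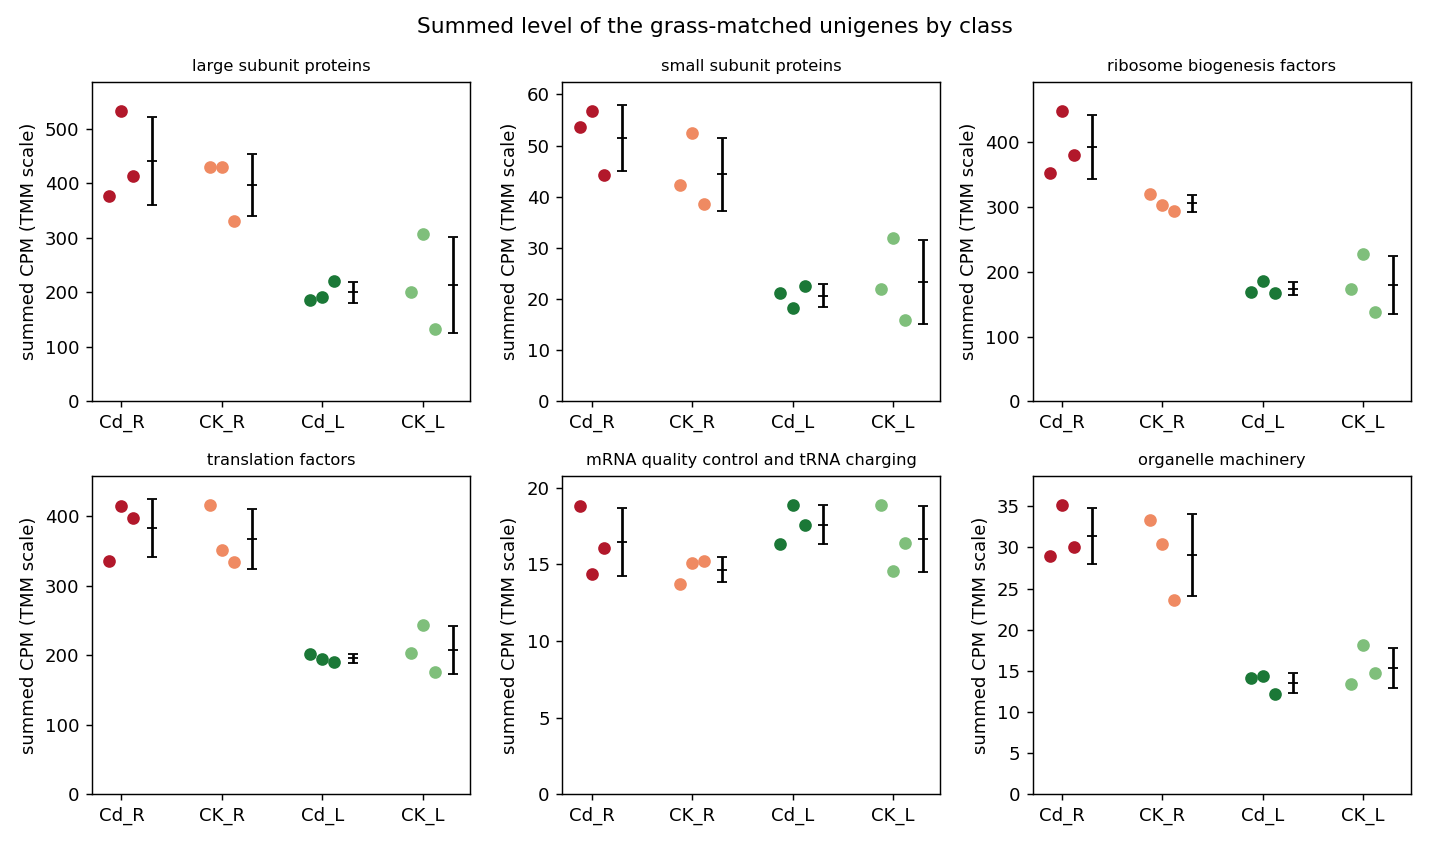
Summed CPM (TMM scale) of the members of each class in every library (points, 3 per group) with mean and SD (black bars, n = 3). In the panel of ribosome biogenesis factors all 3 Cd_R libraries (352 to 448 CPM) lie above all 3 CK_R libraries (294 to 320 CPM), and CK_L has the widest scatter in both panels of ribosomal proteins.

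Cd_R vs CK_R asks what differed in root between the Cd and the CK plants. No member was called: the quasi-likelihood test of edgeR found no DEG among 47 members tested, nor among the 55317 unigenes tested (percent called 0.0). A unigene counted as a DEG when its Benjamini-Hochberg adjusted p did not exceed 0.05 and its log2 fold change was 1 or more in size. The lowest adjusted p of a member was 0.999 in edgeR and 0.161 in DESeq2, which called no member either (0.15% of all unigenes). Unadjusted p was under 0.05 for 2 members in edgeR (4.62% of all unigenes) and for 6 in DESeq2 (2.95%), all of them higher in Cd_R. The log2 fold change was above 0 for 39 of the 47 members (48.2% of all unigenes tested), with a median of 0.20. All 3 Cd_R libraries lay above all 3 CK_R libraries for 10 of the 47, against 5.1% of all unigenes, and for no member were they all below (4.49%). Of these 10, 8 were ribosome biogenesis factors and none was a ribosomal protein. The absence of ribosomal proteins held only on the TMM scale with all libraries. With library totals without TMM all Cd_R libraries lay above all CK_R libraries for 20 of the 47 (8.33% of all unigenes). These included RPL22, RPL23a, RPL34, RPL40 and RPS15a. Without Cd_R replicate 1 and CK_R replicate 3 all remaining Cd_R libraries lay above all remaining CK_R libraries for 16 of the 47 (18.8% of all unigenes). RPL11 (Cluster-14691.47623), RPL34 and RPL40 were among the 16. In this setting the remaining Cd_R libraries lay below for none (18.1%), and no member had an unadjusted p under 0.05 in edgeR. The 10 members were singled out after their values had been seen. For members higher in root, the rule by which the study chose its list favours Cd_R above CK_R in these same libraries. The direction of these counts, set beside all unigenes, is therefore not a finding.

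Ribosome biogenesis factors had the highest class median in root. All 13 were tested, and 12 had a log2 fold change above 0, with a median of 0.39 and a range of -0.17 to 0.90. ROK1 (Cluster-14691.59290), in yeast a DEAD-box helicase needed for the RNA of the small subunit, had 15.6, 15.1 and 14.6 CPM in Cd_R and 10.3, 10.8 and 10.1 CPM in CK_R. Its groups were far apart relative to their spread, with a log2 fold change of 0.54 ± 0.19 (SE; unadjusted p = 0.0229, adjusted p = 0.999, edgeR). In leaf ROK1 had 8.33, 6.79 and 5.49 CPM in Cd_L and 6.62, 6.61 and 3.62 CPM in CK_L, which overlapped. Nop10 (Cluster-14691.65943), a small protein of the particles that convert uridine to pseudouridine in ribosomal RNA, had 3.12, 3.25 and 2.16 CPM in Cd_R and 1.59, 1.63 and 1.36 CPM in CK_R. Its log2 fold change was 0.90 ± 0.31 (unadjusted p = 0.0233, adjusted p = 0.999, edgeR), and its leaf levels of 0.376 to 0.839 CPM in Cd_L and 0.339 to 1.29 CPM in CK_L overlapped.

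Among the factors with the highest counts, NSA2 (Cluster-14691.48385), which in yeast acts in large subunit assembly, had 88.2, 136 and 114 CPM in Cd_R and 91, 77.8 and 75.6 CPM in CK_R. Cd_R replicate 1 fell inside the CK_R range, so the groups overlapped. In leaf NSA2 had 37.9, 62.1 and 42.6 CPM in Cd_L and 42.4, 54.4 and 46.4 CPM in CK_L. Dim2 (Cluster-14691.44748), an RNA-binding factor of the small subunit, had 51.8, 66.7 and 55.7 CPM in Cd_R and 50.1, 38.9 and 43.6 CPM in CK_R. Cd_R was above CK_R in every library, with Cd_R replicate 1 close to CK_R replicate 1. Its leaf levels were 27.3, 29.5 and 29 CPM in Cd_L and 28.8, 42.7 and 25.4 CPM in CK_L. BRX1 (Cluster-14691.36626), a large subunit factor, had 43.9, 50.4 and 39.8 CPM in Cd_R and 35.6, 38.7 and 34.2 CPM in CK_R. The closest pair of its libraries, Cd_R replicate 3 and CK_R replicate 2, differed by little. In leaf BRX1 had 22.5, 17.7 and 19.6 CPM in Cd_L and 17.5, 29.1 and 13.7 CPM in CK_L.

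The other factors whose root groups did not overlap were RID2 (a methyltransferase known from Arabidopsis), SSF1 and MRT4 (large subunit assembly in yeast) and NOC4 (small subunit assembly in yeast). RID2 had 23.6 to 27 CPM in Cd_R and 20.6 to 21.9 CPM in CK_R, and SSF1 had 18.8 to 23.3 CPM in Cd_R and 13.1 to 16.9 CPM in CK_R. MRT4 had 31.9 to 42.7 CPM in Cd_R and 26.4 to 31.6 CPM in CK_R, and NOC4 had 17.2 to 22.2 CPM in Cd_R and 11.8 to 16.2 CPM in CK_R. Their log2 fold changes were 0.25, 0.45, 0.31 and 0.47 in that order, with SEs of 0.17, 0.20, 0.20 and 0.23. UTP18, UTP6 and UTP22, parts of the yeast complex that processes small subunit RNA, had 0.12 ± 0.19, 0.35 ± 0.22 and 0.45 ± 0.38 with overlapping groups. SLX9 alone had a negative value, -0.17 ± 0.23, which came to 0.01 when library totals were used without TMM and to 0.03 without CK_R replicate 2.

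**Figure D3:**
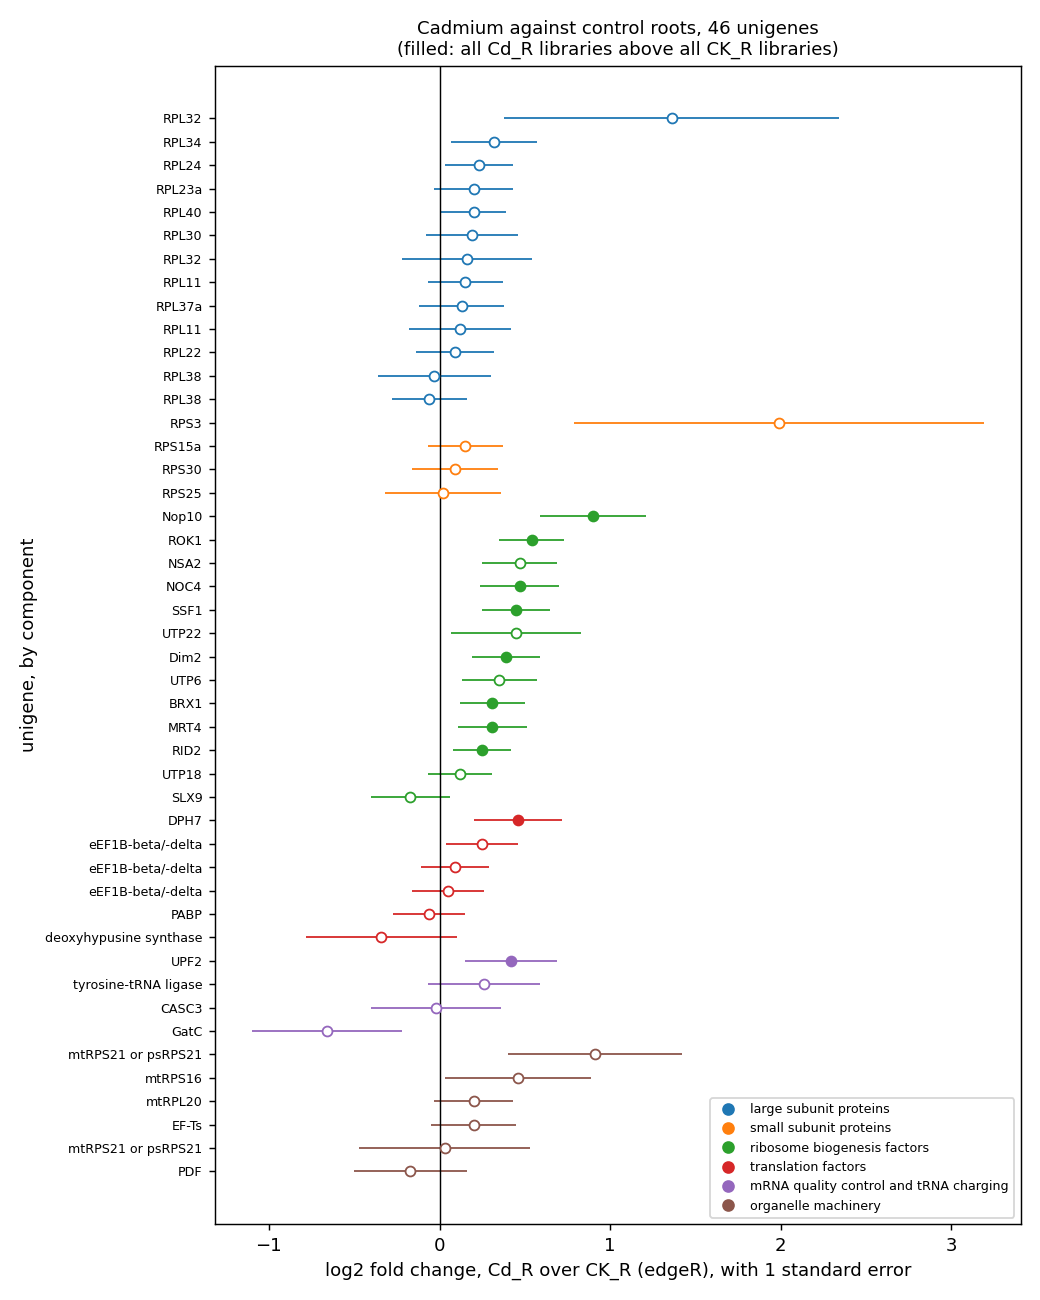
Log2 fold change of Cd_R over CK_R (edgeR, bars 1 SE) for 46 of the 47 members tested, sorted within class. Filled points mark the 10 members whose 3 Cd_R libraries all lie above the 3 CK_R libraries, 8 of them ribosome biogenesis factors, and no member passed the threshold after adjustment.

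Proteins of the large subunit were near equal in Cd_R and CK_R. Of the 17 members, 13 were tested, with a median log2 fold change of 0.16, and no groups separated on the TMM scale with all libraries. RPL22 (Cluster-14691.32186) had 83.5, 120 and 95.4 CPM in Cd_R and 102, 104 and 75.3 CPM in CK_R, and 45.4, 40.5 and 48.5 CPM in Cd_L and 47.1, 71.7 and 24.8 CPM in CK_L. RPL23a (Cluster-14691.33213) had 69.8, 104 and 78.1 CPM in Cd_R and 78, 81.1 and 60.4 CPM in CK_R, and 33.6, 37 and 43.6 CPM in Cd_L and 39.3, 54.1 and 22.5 CPM in CK_L. RPL37a (Cluster-14691.44787) had 59.5, 99.8 and 78.9 CPM in Cd_R and 78.7, 80.3 and 58.5 CPM in CK_R, and 34.4, 38.9 and 44.1 CPM in Cd_L and 33.7, 60 and 28.2 CPM in CK_L. These 3 shared a profile over the libraries, with Cd_R replicate 2 the highest of its group, CK_R replicate 3 the lowest of its own, and CK_L replicates 2 and 3 on either side of all Cd_L libraries.

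RPL11 was represented by 3 unigenes. Cluster-14691.47623 had 15.3, 22.9 and 21.4 CPM in Cd_R and 19.9, 18.3 and 15.4 CPM in CK_R, and 7.72 to 10.2 CPM in Cd_L and 8.53 to 13.7 CPM in CK_L. Cluster-14691.54725 had 7.34, 13.4 and 8.81 CPM in Cd_R and 10.3, 10.2 and 6.74 CPM in CK_R, and 2.07 to 4.16 CPM in Cd_L and 1.41 to 6.67 CPM in CK_L. The third RPL11 unigene, Cluster-14691.7596, had no leaf count and 70, 6 and 3 counts in Cd_R against 0, 2 and 5 counts in CK_R. RPL38 had a pair of unigenes. Cluster-14691.18941 had 9.11, 17.5 and 13 CPM in Cd_R and 17.8, 13.6 and 9.24 CPM in CK_R, and Cluster-14691.63670 had 10.8, 15.4 and 12.6 CPM in Cd_R and 15.8, 13.2 and 11.6 CPM in CK_R. Their log2 fold changes in root were -0.03 ± 0.33 and -0.06 ± 0.22, and in leaf -0.42 ± 0.32 and -0.36 ± 0.46. The RPL32 unigene with leaf counts, Cluster-14691.56428, had 2.45, 3.53 and 3.12 CPM in Cd_R and 3.93, 2.67 and 1.59 CPM in CK_R, while the other, Cluster-15745.0, belonged to the 10 without leaf counts. The remaining tested large subunit proteins, RPL24, RPL30, RPL34 and RPL40, had log2 fold changes of 0.19 to 0.32 in root. Their groups overlapped on the TMM scale with all libraries.

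Of the 10 small subunit proteins 5 were tested in root. RPS30 (Cluster-14691.27330) had 23.1, 28.1 and 20.9 CPM in Cd_R and 21.5, 29.1 and 17.3 CPM in CK_R, and 10.7, 9.9 and 12.1 CPM in Cd_L and 9.99, 16.1 and 8.47 CPM in CK_L. RPS15a (Cluster-14691.31233) had 14.4, 21.1 and 17 CPM in Cd_R and 15, 18.1 and 14.3 CPM in CK_R, and 8.09, 5.91 and 8 CPM in Cd_L and 8.24, 12.4 and 5.93 CPM in CK_L. For both genes, Cd and CK libraries of the same organ overlapped on the TMM scale. RPS25 (Cluster-14691.55073) had 1.06, 1.57 and 1.08 CPM in Cd_R and 1.12, 1.47 and 1.07 CPM in CK_R, and 0.32 to 0.377 CPM in Cd_L and 0.282 to 1.01 CPM in CK_L. RPS3 (Cluster-14691.4360), a protein at the mRNA entry of the small subunit, had the largest log2 fold change of the root members, 1.99 ± 1.2 (unadjusted p = 0.143, adjusted p = 0.999, edgeR). It rested on Cd_R replicate 1, with 133, 15 and 7 counts in Cd_R against 6, 4 and 28 in CK_R, and it was -0.15 without that library.

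Translation factors were near equal between Cd_R and CK_R as well, with a median log2 fold change of 0.07 over 6 members. PABP (Cluster-14691.47536), the poly(A)-binding protein that joins the tail of an mRNA to the initiation machinery, had 157, 199 and 206 CPM in Cd_R and 219, 190 and 176 CPM in CK_R. In leaf it had 103, 89.1 and 92.7 CPM in Cd_L and 110, 113 and 116 CPM in CK_L. It was the only tested member whose leaf groups did not overlap on the TMM scale, lower in Cd_L (4.58% of all unigenes). Its log2 fold change was -0.24 ± 0.18 (unadjusted p = 0.217, adjusted p = 1, edgeR). With library totals without TMM 0 of the 42 members tested in leaf lay lower in all Cd_L libraries (2.54% of all unigenes), so the groups of PABP overlapped there. The 3 unigenes of eEF1B, subunits of the exchange factor that recharges elongation factor eEF1A with GTP, had overlapping Cd and CK libraries in both organs. Cluster-14691.43882 had 115, 132 and 122 CPM in Cd_R and 124, 87.9 and 98.5 CPM in CK_R, and 60.1, 70.6 and 60.4 CPM in Cd_L and 59.3, 74.3 and 38.5 CPM in CK_L. Cluster-14691.48313 had 34.5, 47.7 and 41.6 CPM in Cd_R and 42.7, 43.8 and 32.8 CPM in CK_R, and 20.1 to 22 CPM in Cd_L and 13 to 32.7 CPM in CK_L. Cluster-14691.42000 had 25.2, 31.8 and 24.1 CPM in Cd_R and 27.9, 25.1 and 23.3 CPM in CK_R, and 13.4 to 15 CPM in Cd_L and 7.12 to 21.7 CPM in CK_L. Their root over leaf log2 fold changes were 0.99 each in the Cd plants and 0.90, 0.93 and 0.93 in the CK plants.

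Of the enzymes that modify translation factors, DPH7 (Cluster-28108.0), which takes part in making diphthamide on elongation factor eEF2, had 2.35, 2.71 and 2.71 CPM in Cd_R and 2.02, 1.75 and 1.88 CPM in CK_R. Its root groups did not overlap, with a log2 fold change of 0.46 ± 0.26. Deoxyhypusine synthase, which modifies eIF5A, had -0.34 ± 0.44 with overlapping groups.

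Members of mRNA quality control and tRNA charging differed from each other by organ. UPF2 (Cluster-14691.72423), a core factor of nonsense-mediated mRNA decay, had 11.1, 8.27 and 8.44 CPM in Cd_R and 5.38, 7.89 and 7.68 CPM in CK_R, and 3.48, 5.74 and 3.95 CPM in Cd_L and 5.08, 4.26 and 4.97 CPM in CK_L. Every Cd_R library was above every CK_R library (log2 fold change 0.42 ± 0.27). CASC3 (Cluster-14691.37585), a subunit of the exon junction complex, had 4.99, 2.71 and 5.05 CPM in Cd_R and 5.2, 2.87 and 4.89 CPM in CK_R, and 9.55, 10.5 and 8.91 CPM in Cd_L and 11.1, 7.17 and 8.13 CPM in CK_L. All its leaf libraries were above all its root libraries. GatC (Cluster-14691.30119), a subunit of the enzyme that completes glutamine-charged tRNA in organelles, had 1.32, 1.43 and 0.855 CPM in Cd_R and 1.34, 2.91 and 1.49 CPM in CK_R, and 2.68, 2.14 and 3.68 CPM in Cd_L and 1.79, 2.75 and 2.94 CPM in CK_L. Its root and leaf libraries overlapped in the CK plants but not in the Cd plants. The tyrosine-tRNA ligase (Cluster-32296.0) had a root over leaf log2 fold change of 1.28 in both the Cd and the CK plants.

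Members binned as organelle machinery had root over leaf log2 fold changes above 0 where tested, like most cytosolic ones. GatC, which is binned with tRNA charging but acts in organelles, went the other way. PDF (Cluster-14691.16871), the peptide deformylase that trims new proteins in organelles, had 6.89, 10.4 and 10.7 CPM in Cd_R and 15.2, 9.53 and 6.93 CPM in CK_R, and 5.04, 5.2 and 3.73 CPM in Cd_L and 4.61, 5.88 and 8.13 CPM in CK_L. Its CK_R and CK_L libraries overlapped. The mitochondrial mtRPL20 (Cluster-14691.28670) had 9.91, 11.1 and 8.33 CPM in Cd_R and 8.05, 10.1 and 7.49 CPM in CK_R, and 3.48 to 4.85 CPM in Cd_L and 2.88 to 6.33 CPM in CK_L. EF-Ts (Cluster-14691.7518), the exchange factor of organelle elongation, had 6.53, 9.95 and 8.07 CPM in Cd_R and 6.79, 8.53 and 6.09 CPM in CK_R, and 3.29 to 4.61 CPM in Cd_L and 3.28 to 4.71 CPM in CK_L. For all 3, Cd and CK overlapped in both organs. The pair of unigenes named mitochondrial or plastid RPS21 was low. Cluster-14691.4050 had 2.12, 0.856 and 1.04 CPM in Cd_R and 0.902, 0.478 and 0.778 CPM in CK_R, and Cluster-14691.9257 had 0.676, 0.535 and 0.743 CPM in Cd_R and 0.614, 0.319 and 0.972 CPM in CK_R. Their leaf levels reached at most 0.419 and 0.168 CPM, and log2 fold changes in root were 0.91 ± 0.51 and 0.03 ± 0.5.

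Cd_L vs CK_L asks the same of leaf. No member differed between Cd_L and CK_L by the test: of 42 members tested none was called, as for the 48194 unigenes tested (percent called 0.0), and none had an unadjusted p under 0.05 in edgeR (4.25% of all unigenes) or in DESeq2 (2.69%). DESeq2 called no member (0.0773% of all unigenes). The log2 fold change was above 0 for 11 of the 42 (48.5% of all unigenes), with a median of -0.08. For members higher in root, the study's rule for its list favours values below 0 here, so this direction is not a finding. None of the 12 large subunit and 3 small subunit proteins tested had a value above 0, and their class medians were both -0.10. Without CK_L replicate 2 the median over the 42 was 0.19, and without CK_L replicate 3 it was -0.27. These values moved with 2 libraries: over the 46 members with leaf counts, CK_L replicate 2 was the highest CK_L library in 31 and CK_L replicate 3 the lowest in 34. The median SD of log2(CPM + 0.5) over these 46 members was 0.235 in Cd_R, 0.229 in CK_R, 0.183 in Cd_L and 0.49 in CK_L. Over the 61242 unigenes kept in the 12 libraries it was 0.298 in Cd_R, 0.369 in CK_R, 0.257 in Cd_L and 0.31 in CK_L. The part of CK_L replicates 2 and 3 in the leaf comparison of the members was not tested beyond leaving each out.

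The interaction, (Cd_R - CK_R) - (Cd_L - CK_L), asks whether the treatment difference was unequal between root and leaf. None of 47 members tested was called, as for the 61242 unigenes tested (percent called 0.0), and none had an unadjusted p under 0.05 in edgeR (3.17% of all unigenes) or in DESeq2 (1.94%). DESeq2 called no member (0.0079% of all unigenes). The lowest unadjusted p was 0.0826, for Dim2, with a value of 0.58 ± 0.30 (adjusted p = 1, edgeR). The value was above 0 for 45 of the 47 members (50.9% of all unigenes), with a median of 0.32, and below 0 for CASC3 and GatC. The rule by which the study chose its list acts on this same contrast, so the direction is not a finding. The median was 0.10 to 0.54 when each library was left out in turn.

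Root against leaf, the members tested were higher in root apart from CASC3 and GatC. In Cd_R vs Cd_L, 45 members were tested and 40 were DEGs in edgeR, 38 higher and 2 lower (23.0% and 17.9% of all unigenes tested). The study's choice of list used this contrast, and the counts stand as a description. The median log2 fold change was 1.20, and 1.28 over 55 members when the 10 without leaf counts were set at their lower bounds (1.37 over 55 without Cd_R replicate 1). In CK_R vs CK_L, 44 were tested and 3 were DEGs in edgeR, all higher (22.3% of all unigenes tested), namely SSF1, RPS30 and the RPS21 unigene Cluster-14691.4050, with a median log2 fold change of 0.92. Calls in CK_R vs CK_L hung on the leaf libraries: they numbered 21 of 46 without CK_L replicate 2, all higher, where 19.7% of all unigenes were called higher. They numbered 0 without CK_L replicate 1 (15.8% of all unigenes) and 0 without CK_L replicate 3 (16.0%). Without CK_R replicate 3 they numbered 7 of 44, all higher (22.2% of all unigenes).

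Set side by side, 44 members were tested in both pairs of groups, of which 42 were higher and 2 lower in root in both. They were at least 2-fold higher in root for 37 in the Cd plants and for 14 in the CK plants. The study's rule kept DEGs of Cd_R vs Cd_L and removed those of CK_R vs CK_L, so it acts on both counts. Their inequality is therefore not a finding, and the share of all unigenes is not given for them. Groups did not overlap, with all root libraries higher, for 43 of 45 in Cd_R vs Cd_L (30.4% of all unigenes) and for 34 of 44 in CK_R vs CK_L (28.7%). With library totals in place of TMM the median over all unigenes moved by more than 0.1 in 4 comparisons, reaching 0.59 for root against leaf under Cd and 0.55 under CK, and 0.14 for Cd_R against CK_R and 0.10 for Cd_L against CK_L. The members' medians were then 1.75, 1.39, 0.37 and 0.02 in the same order, so that the leaf median changed sign.

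**Figure D4:**
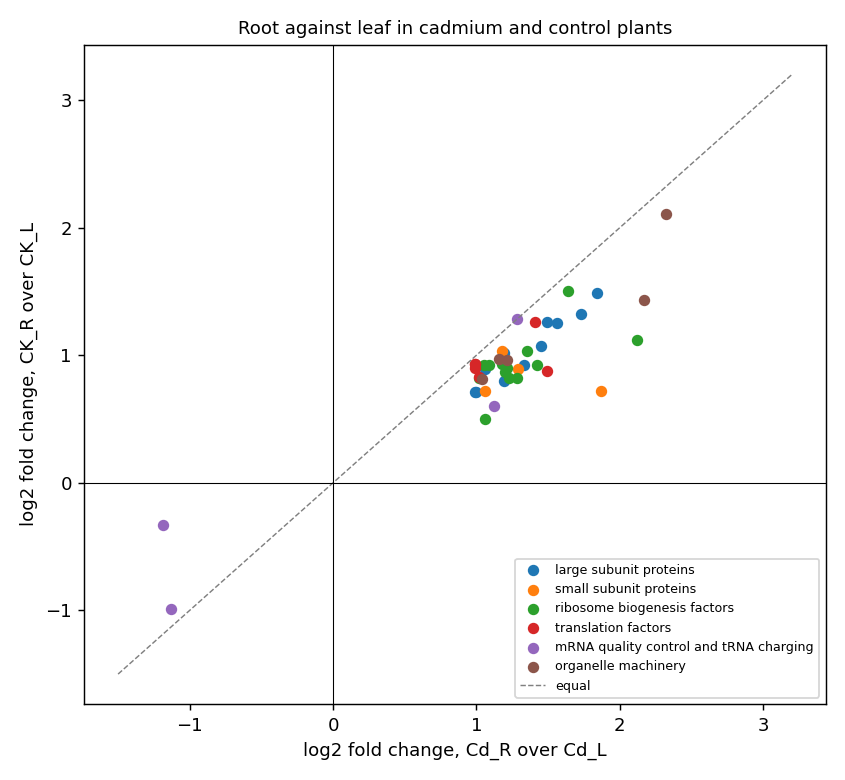
Log2 fold change of root over leaf in the Cd plants (x axis) and in the CK plants (y axis) for the 44 members tested in both, coloured by class, with the line of equal values. The 42 members higher in root in both pairs lie in the upper right and CASC3 and GatC in the lower left, and most points fall below the line. The rule by which the study chose its list favours points below the line for members higher in root.

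The 10 members without a leaf count were all cytosolic ribosomal proteins: RPL11 (Cluster-14691.7596), RPL13a, RPL14, RPL18, RPL32 (Cluster-15745.0), RPS4, RPS18, RPS20, RPS25 (Cluster-14691.78153) and RPS27. Their best hits were Hordeum in 6, Zea in 3 and Oryza in 1, and 6 of the 7 Hordeum members of the list were among them. Their counts summed to 530, 48 and 62 in Cd_R and 7, 32 and 201 in CK_R. Cd_R replicate 1 held 60.2% and CK_R replicate 3 held 22.8% of their root counts, against 17.1% and 15.3% for the other 46 members. Each of the 10 was highest in Cd_R replicate 1. These are the libraries that stood apart over all unigenes.

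RPL18 (Cluster-7226.0) had 86, 6 and 3 counts in Cd_R and 0, 0 and 70 in CK_R, and RPS25 (Cluster-14691.78153) had 75, 8 and 7 counts in Cd_R and 1, 0 and 60 in CK_R. In both, Cd_R replicate 1 and CK_R replicate 3 were high and the other root libraries low. RPS20 (Cluster-14196.0) differed, with 36, 1 and 14 counts in Cd_R and 0, 1 and 1 in CK_R. Against a floor of 3 counts over the Cd_L libraries, Cd_R was at least 9.4-fold to at least 23.5-fold higher than Cd_L for the 10, a bound that rests mainly on Cd_R replicate 1. Without that library, a setting chosen after seeing the data, the bound ran from 1.55-fold for RPS4 to 6.58-fold for RPL32. RPL32 (Cluster-15745.0) was the only one of them to pass the low-count filter in Cd_R vs CK_R, with a log2 fold change of 1.36 ± 0.98 (unadjusted p = 0.208, adjusted p = 0.999, edgeR). Its value was 0.14 ± 0.95 without Cd_R replicate 1, and with CK_R replicate 3 left out as well it did not pass the filter.

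**Figure D5:**
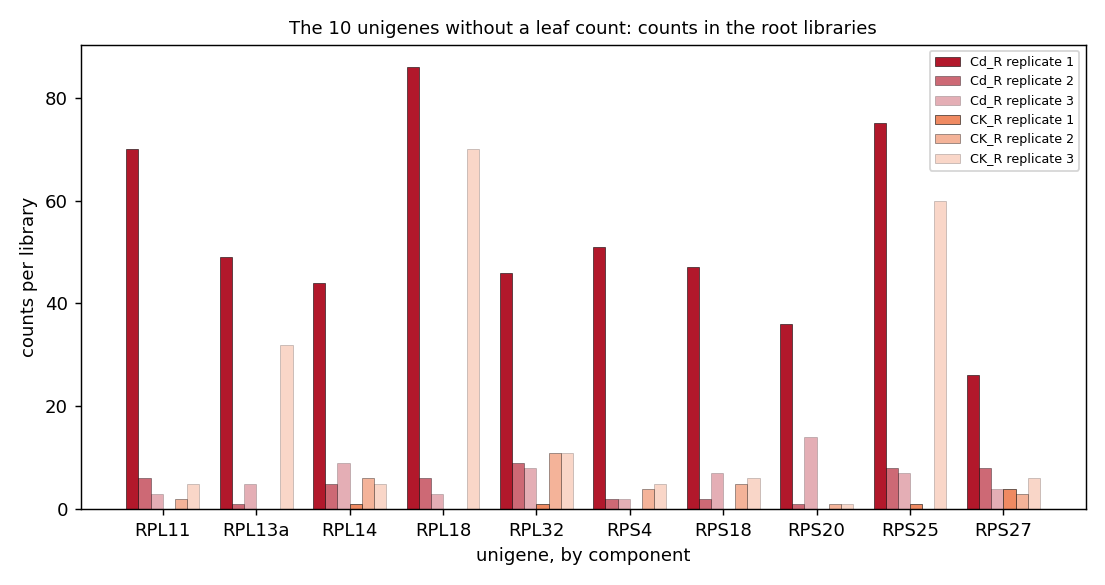
Counts of the 10 unigenes without leaf counts in the 6 root libraries (bars, 1 per library). Cd_R replicate 1 is the highest library for each of the 10, and CK_R replicate 3 reaches 70 counts for RPL18 and 60 for RPS25.

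The other 68 unigenes of the list, whose best hits were not grasses, showed this pattern more widely. Of 46 with a best hit in another land plant 39 had 3 or fewer counts over the 6 leaf libraries, and of 22 with a best hit outside the land plants 20 did. Their root counts lay in Cd_R replicate 1 for 54.2% and 44.1%, and in CK_R replicate 3 for 25.3% and 16.3%. Summed, the land plant unigenes had 133, 17.5 and 18.7 CPM in Cd_R and 10.3, 11.1 and 62.4 CPM in CK_R, and those outside the land plants had 34.7, 9.52 and 9.96 CPM in Cd_R and 4.48, 12.2 and 12.9 CPM in CK_R. The part of these transcripts in the values of the 10 members, and of RPS3, was not tested. Of the 68 unigenes 20 were tested in Cd_R vs CK_R with none called and none with an unadjusted p under 0.05 in edgeR. In Cd_R vs Cd_L 12 were tested, of which 11 were called, all higher (23.0% of all unigenes), and in CK_R vs CK_L 6 were tested, of which 1 was called, higher (22.3%). These unigenes come from the same list, so their counts are a description too. A unigene with next to no leaf counts could pass the low-count filter only through its root libraries, and a call could then only be higher. The shares of all unigenes are therefore no measure for these calls. The calls are not given without Cd_R replicate 1 and CK_R replicate 3.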

How the data were processed

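Poly(A) RNA of 12 giant reed samples was sequenced in pairs on an Illumina instrument. The submitters' processing notes name CASAVA 1.8, RSEM and DESeq2. The authors filtered the reads, assembled them without a reference, kept 1 unigene per cluster and deposited expected counts estimated by RSEM per unigene and library, with no normalization or filter. The deposited table holds no columns of the authors' own comparisons.

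Rounding to whole numbers came first, and R 4.3.3 was used throughout. Groups were compared by quasi-likelihood in edgeR 4.0.16, with TMM and filterByExpr on their own libraries and over all unigenes, and DESeq2 1.42.0 served as the other tool. The interaction was fitted to all 12 libraries. The standard error is the absolute log2 fold change divided by the square root of F. CPM used the TMM factors of all 12 libraries. The tests were tested on simulated data. Members were matched to the table by identifier, and all 56 were found. The named members are the 3 with the highest mean CPM in each class, those with an unadjusted p under 0.05, those with 3 or fewer leaf counts and those that share a component. A member is not reported here, though it stays in counts, sums and medians. The members, classes and lists were chosen with earlier results of these data known. Replicates are biological per the study's methods, with totals of 22157170 to 26033492 counts per library. Alternatives were other scalings (RLE, library totals), no filter or a filter of 10 counts in 3 libraries, DESeq2, all 12 libraries in one fit, a replicate block, shares of the counts of the list, other limits on leaf counts, and libraries left out. No transcript sequences were used here, so no sequence is shown.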

Additional observations from a re-analysis of the deposited data

How the results depend on the processing

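No member was called in Cd_R vs CK_R, Cd_L vs CK_L or the interaction under any alternative that was run. Calls in Cd_R vs Cd_L stayed within 1.5 times the 40 reported, at 33 to 41 with single libraries left out. In those fits 18.9% to 24.9% of all unigenes were called higher and 14.8% to 19.1% lower. Calls in CK_R vs CK_L, 3 as reported, were 38 with library totals without TMM (30.3% of all unigenes called higher) and 0 with no low-count filter (10.3%). They were 11 with all 12 libraries in one fit, 10 higher and 1 lower (23.5% and 18.0%), and 5 with DESeq2 (12.5%). Without both Cd_R replicate 1 and CK_R replicate 3 they were 7 (22.2%), and 0 to 21 with single libraries left out (15.8% to 22.2%). With the replicate block they were 13, 12 higher and 1 lower (22.4% and 17.2%). The block moved no other count of calls by over 1.5 times. The correlation of deviations between same-numbered libraries, over 61242 unigenes, was 0.0828, 0.197 and 0.117 for CK_R and CK_L, where the pairs of unequal number ran from -0.169 to 0.0911, and it was 0.0364, -0.128 and 0.0602 for Cd_R and Cd_L. It was -0.294, 0.434 and -0.351 for Cd_R and CK_R, and -0.114, -0.386 and -0.117 for Cd_L and CK_L. Pairing was taken as present where every pair was over 0.1, which held in no comparison, so the fit without the block was kept. The study's pots stood in a randomized block scheme, and the labels do not say whether replicate numbers mark blocks. Whether the numbers mark blocks, or shared pots in the CK plants, was not settled by these values. Members with all Cd_R libraries above all CK_R libraries, 10 as reported, were 20 with library totals and 16 without Cd_R replicate 1 and CK_R replicate 3, and the shares of all unigenes tested were 5.1%, 8.33% and 18.8% in that order. With all Cd_L libraries above all CK_L libraries there were 0 as reported (4.77% of all unigenes) and 0 to 6 with single libraries left out. The share of all unigenes is not given with single libraries left out, so nothing is read from that range. The log2 ratio of summed CPM in Cd_R over CK_R for ribosome biogenesis factors, 0.36, was 0.51 with library totals and 0.14 as a share of the counts of the list. On that share it was 0.00 for small subunit proteins, -0.15 for translation factors, -0.04 for quality control and tRNA charging, and -0.10 for organelle members. With library totals it was 0.32 for quality control and tRNA charging. SLX9 was 0.01 with library totals and -0.26 to 0.03 with single libraries left out, and RPS3 was -0.15 to 3.21. The cause of these changes was not tested. The bound for members without leaf counts, at least 9.4-fold, was at least 1.55-fold without Cd_R replicate 1, a setting chosen after seeing the data. Members with few counts limit what can be seen at this depth, and for the 10 without leaf counts only a bound could be given.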
